A study of Mus musculus with 96 samples.

Results

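The hematopoietic cell (HC) libraries of the infarcted mouse heart at Day 7 were compared with those of unoperated hearts at Day 0. The libraries were chosen by their titles alone, 4 at Day 7 and 4 at Day 0, 8 of the 96 libraries of the series and of its 24 HC libraries. The series follows CM (cardiomyocytes), EC (endothelial cells), FB (fibroblasts) and HC by total RNA-seq at Day 0 and at Days 1, 3, 7, 14 and 28 after acute myocardial infarction, with 4 libraries in each group. The comparison addresses which genes of the blood-borne and resident immune cells of the heart differ a week after the artery was closed.

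All mice were adult males of the strain C57Bl/6J, 12 to 14 weeks of age. Day 0 mice were not operated on, so the groups differ in surgery as well as in infarction, and in Day 7 mice the left anterior descending coronary artery (LAD) had been tied off for good. The whole heart was digested and HC were taken with magnetic beads against CD45, a surface protein of nearly all leukocytes. Each library is a pool of RNA of 3 mice, or of 2 where a sample was missing. The sources call the 4 libraries of a group both biological and technical replicates, so every p-value measures the spread between pools. In the main fit of HC that spread was estimated from all 24 HC libraries, those of the other days included.

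After an infarct, neutrophils enter the heart first and monocytes follow, cross the vessel wall and become macrophages. These clear dead muscle, break down what they have taken up in lysosomes, and release cytokines and matrix proteins while scar is laid down. Before injury the heart already holds macrophages of its own, marked by Timd4, Lyve1 and Folr2, beside fewer lymphocytes.

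Estimated reads ran from 18518234 to 26161406 in the Day 0 libraries and from 22744976 to 28583143 at Day 7. Ribosomal RNA took 18.2% to 24.4% of the reads at Day 0 and 9.72% to 14.0% at Day 7. Levels are given as CPM, counts per 1e6 estimated reads of the library after TMM scaling, in the order of replicates 1 to 4. The 4 leukocyte markers that the study uses were present in all 8 libraries, summing to 897 to 1082 CPM at Day 0 and 1377 to 1587 CPM at Day 7. Ptprc, which encodes CD45 itself, stood at 789.5, 651, 709 and 666 CPM at Day 0 and 1002, 1087, 897 and 980.3 CPM at Day 7. In replicate 2 of Day 7, genes of T cells and of their development in the thymus stood far above the other libraries, as described with the T cells. At Day 7 the deposited files list transcripts and at Day 0 genes. This kind of file and the day cannot be told apart, and 152 genes whose lengths differed between the kinds were left out.

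Of 18861 genes tested, 2654 were higher at Day 7, or 14.1%, and 2617 were lower, or 13.9%. The median log2 fold change over all genes was 0.03. By this count 27.9% of genes differed in either direction, which is the share against which the gene lists below are read. All 4 libraries of Day 7 lay above all 4 of Day 0 for 18.9% of genes and below for 18.7%. On the TPM scale, which divides by gene length and sums to the same total in every library, the median log2 fold change of all genes was 0.29 and limma called 3511 genes higher and 877 lower. Folds are log2 differences, Day 7 minus Day 0, ± SE, with adjusted p from edgeR's quasi-likelihood test. Here SE was worked back from that test, as the size of the log2 difference divided by the square root of its F statistic.

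**Figure D1:**
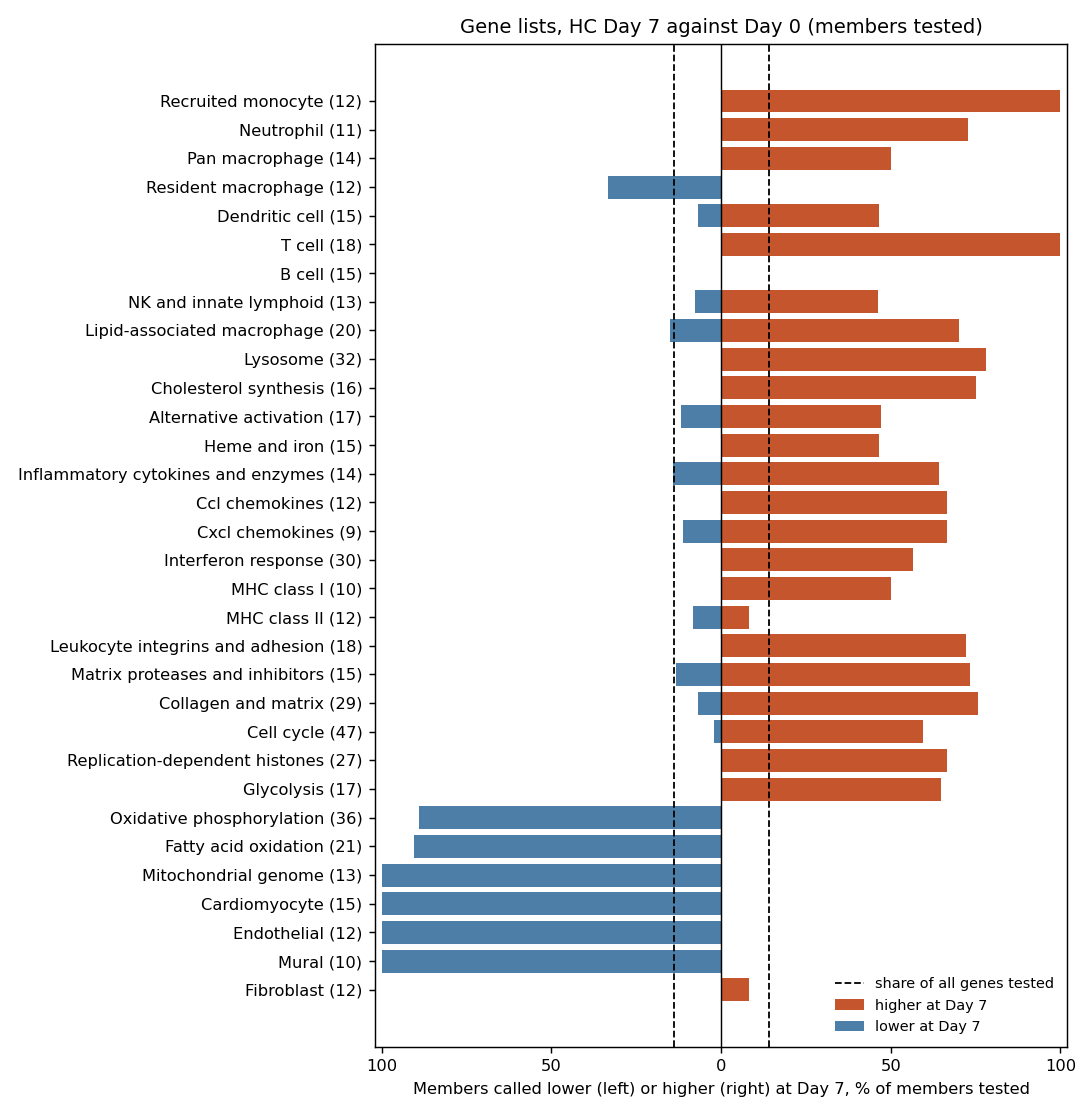
Share of the tested members of each gene list called higher (right, red) or lower (left, blue) at Day 7 than at Day 0 in HC, in percent of members, with the number tested in brackets. Dashed lines mark the shares over all genes, 14.1% higher and 13.9% lower, and the recruited monocyte bar reaches 100% (12 of 12) while the cardiomyocyte bar reaches 100% on the lower side (15 of 15).

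Of the 20 largest rises, the steepest was that of Ccnb1ip1, at 8.75 ± 1.46, followed by products of wound macrophages. Arg1, arginase of alternatively activated macrophages, stood at 0.597, 1.46, 0.989 and 1.04 CPM at Day 0 and 398, 183, 496 and 196 CPM at Day 7. Spp1, the secreted matrix protein osteopontin, stood at 2.88, 4.48, 6.55 and 3.32 CPM at Day 0 and 505, 468, 481 and 501 CPM at Day 7. Genes entered the 20 largest rises only if they passed the test and did not overlap between the days. Neither property is therefore a further result for them. The log2 fold changes of Arg1 and Spp1 were 8.26 ± 0.67 (adjusted p = 1.8e-08) and 6.83 ± 0.37 (adjusted p = 1.6e-10). Gpnmb, a glycoprotein of lysosomes in macrophages loaded with debris, measured 1.30, 2.33, 3.21 and 2.40 CPM at Day 0 and 183, 323, 51.2 and 272 CPM at Day 7. Replicate 3 was the lowest of its Day 7 libraries, and the change was 6.49 ± 0.65 (adjusted p = 1.7e-07).

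Others of the 20 highest rises were surface receptors and secreted proteins. Olr1, a receptor for oxidised lipoprotein, measured 2.01, 1.74, 1.55 and 1.84 CPM at Day 0 and 34.1, 31.4, 44.03 and 38.9 CPM at Day 7 and rose by 4.37 ± 0.31 (adjusted p = 2.1e-09). Trem1, a receptor that amplifies inflammation in myeloid cells, measured 2.99, 4.02, 6.86 and 5.77 CPM at Day 0 and 56.1, 35.8, 81.1 and 44.2 CPM at Day 7 and changed by 3.47 ± 0.30 (adjusted p = 3.6e-08). The scavenger receptor Marco and the secreted macrophage protein Cd5l rose by 3.81 ± 0.63 and 3.74 ± 0.43. In both, replicate 2 was the lowest of the 4 Day 7 libraries, at 7.11 CPM for Marco and 17.3 CPM for Cd5l. Acod1, the enzyme that makes itaconate in activated macrophages, measured 1.14, 1.51, 1.67 and 1.88 CPM at Day 0 and 18.8, 9.97, 43.9 and 16.4 CPM at Day 7. Its log2 fold change was 3.84 ± 0.53 (adjusted p = 9.7e-06). The acute-phase protein Saa3 rose by 5.28 ± 0.58, Padi4, which citrullinates histones in neutrophils, by 3.51 ± 0.35, and Serpinb2, an inhibitor of plasminogen activators, by 3.60 ± 0.50.

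**Figure D2:**
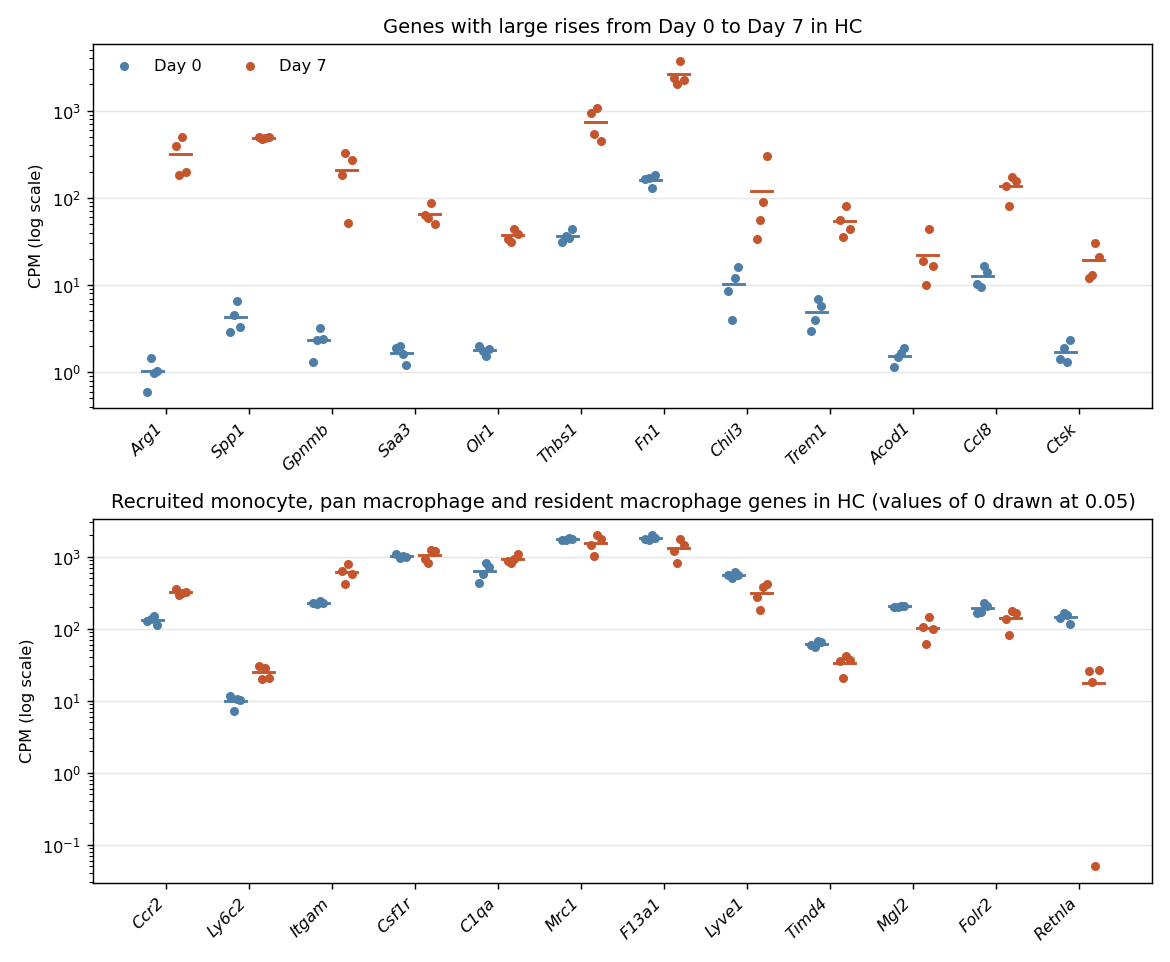
Level of 24 genes in each HC library of Day 0 (blue) and Day 7 (red) in CPM on a log axis, with the mean of 4 libraries as a bar. In the upper panel every Day 7 library lies above every Day 0 library, values of 0 are drawn at 0.05, and in the lower panel Csf1r and Mrc1 overlap between the days and Retnla is at 0 in replicate 3 of Day 7.

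All 12 tested genes of recruited monocytes were higher at Day 7, against 14.1% of all genes, with a median log2 fold change of 1.74. Ccr2, the chemokine receptor that draws monocytes out of the marrow, measured 128, 135, 149 and 111 CPM at Day 0 and 359, 291, 314 and 327 CPM at Day 7. The groups stood apart and differed by 1.30 ± 0.15 (adjusted p = 5.7e-07). Thbs1, thrombospondin, which activates latent TGF-β, ran at 31.4, 36.1, 34.7 and 43.4 CPM at Day 0 and 928, 542, 1069.6 and 454 CPM at Day 7, a rise of 4.36 ± 0.37 (adjusted p = 2.4e-08). Chil3, a chitinase-like protein of monocytes, varied among the Day 7 pools, at 8.47, 3.98, 12.1 and 16.3 CPM at Day 0 and 33.5, 55.97, 89.5 and 302 CPM at Day 7, with replicate 4 the highest. Its change was 3.56 ± 0.74 (adjusted p = 8.6e-04). Vcan, the proteoglycan versican, rose by 2.00 ± 0.30, F10, coagulation factor X, by 2.72 ± 0.30, Hp, haptoglobin, by 2.03 ± 0.41 and Plac8 by 1.34 ± 0.34. Ly6c2, the surface antigen that marks inflammatory monocytes, measured 11.7, 7.22, 10.4 and 10.1 CPM at Day 0 and 30.2, 19.8, 28.02 and 20.3 CPM at Day 7, 1.32 ± 0.39 (adjusted p = 0.015). Leaving out Day 0 replicate 2 ended the call of Ly6c2, and 11 of 12 remained.

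Monocytes enter through integrins, and 13 of 18 leukocyte integrin and adhesion genes were higher and 0 lower, with a median of 0.80. Itgam, the chain CD11b of myeloid cells, measured 224, 221, 239.7 and 228 CPM at Day 0 and 626, 411, 796 and 575 CPM at Day 7. Its partner Itgb2 measured 157, 133, 149.9 and 146 CPM at Day 0 and 374, 273, 401 and 350.4 CPM at Day 7. Every Day 7 library exceeded every Day 0 library in both, with changes of 1.40 ± 0.17 (adjusted p = 1.8e-06) and 1.25 ± 0.12 (adjusted p = 8.8e-08). Cd44, the hyaluronan receptor, rose by 1.06 ± 0.17 and Itgax, the chain CD11c, by 1.30 ± 0.17.

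Of 14 genes shared by macrophages in general, 7 were higher and 0 lower, with a median of 0.48, and 4 were higher without Day 0 replicate 2 or on the TPM scale. Csf1r, the receptor for the growth factor that macrophages need, measured 1071, 967, 1029 and 989 CPM at Day 0 and 925, 813, 1231 and 1180.4 CPM at Day 7. The days overlapped, and the difference was 0.03 ± 0.15 (adjusted p = 0.91). Fcgr1, the high-affinity Fc receptor, was higher by 0.94 ± 0.18 (adjusted p = 4.0e-04) and Mertk, which binds dying cells, by 0.46 ± 0.13 (adjusted p = 0.0089). C1qa, a chain of complement C1q, was 0.54 ± 0.22 with adjusted p = 0.074, and Cx3cr1, the fractalkine receptor, was 0.20 ± 0.22 with adjusted p = 0.55. Adgre1, the antigen F4/80, rose by 0.44 ± 0.15 (adjusted p = 0.028), Lyz2, lysozyme, by 0.55 ± 0.17 (adjusted p = 0.019) and Cd68 by 0.73 ± 0.21 (adjusted p = 0.014). These calls were lost without single libraries: Cd68 without Day 7 replicate 4, Lyz2 without Day 0 replicate 1 or 2, and Adgre1 without any of 6 of the 8.

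The resident macrophage list had few calls. Of 12, 4 were lower at Day 7, against 13.9% of all genes, and 0 were higher, with a median of -0.49. Counted in either direction, 4 of 12 is near the 27.9% of all genes called. Timd4, the receptor for phosphatidylserine on resident cells, measured 58.8, 56.2, 66.6 and 64.3 CPM at Day 0 and 34.95, 20.7, 41.8 and 37.2 CPM at Day 7. Mgl2, a galactose-binding lectin, measured 202, 199, 207 and 209 CPM at Day 0 and 104, 61.9, 145 and 98.1 CPM at Day 7. The days did not overlap for these genes, and they differed by -0.87 ± 0.17 (adjusted p = 5.7e-04) and -0.996 ± 0.17 (adjusted p = 1.0e-04). Lyve1, the hyaluronan receptor of perivascular macrophages, measured 558, 503, 605 and 549 CPM at Day 0 and 272, 183, 383 and 417 CPM at Day 7, with replicate 2 lowest at Day 7, a difference of -0.82 ± 0.27 (adjusted p = 0.026). F13a1, a chain of coagulation factor XIII, differed by -0.49 ± 0.17 (adjusted p = 0.034), a call lost when any of 6 of the 8 libraries was left out. Folr2, a folate receptor, measured 164, 172, 225 and 204 CPM at Day 0 and 135, 81.5, 175 and 166 CPM at Day 7, and its groups overlapped (-0.46 ± 0.45, adjusted p = 0.50). Mrc1, the mannose receptor, was -0.16 ± 0.17 (adjusted p = 0.54) and Cd163, the haemoglobin scavenger receptor, -0.50 ± 0.25 (adjusted p = 0.14). Without Day 0 replicate 3, Day 7 replicate 1 or Day 7 replicate 2, 2 genes of the list were lower, and in the last case 1 was higher. A count of 2 of 12 is near the 13.9% of all genes that were lower with all libraries. Without a filter on low counts 2 were lower. On the TPM scale 0 were lower, 1 was higher and the median was -0.06, against 0.29 over all genes. In bulk RNA, fewer cells of a type and less RNA per cell cannot be told apart, here or for any list below.

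Neutrophil genes were higher for 8 of 11 and lower for 0, with a median of 1.80. S100a8, a subunit of calprotectin, measured 12.7, 17.9, 56.2 and 29.04 CPM at Day 0 and 75.01, 54.3, 197 and 105 CPM at Day 7. The Day 7 range began just below the highest Day 0 library, replicate 3, and the difference was 1.90 ± 0.53 (adjusted p = 0.0092). Csf3r, the receptor for granulocyte growth factor, rose by 1.26 ± 0.29 (adjusted p = 0.0020). Cxcr2, which guides neutrophils, differed by 0.36 ± 0.25 (adjusted p = 0.31). Ly6g, the defining antigen, measured 0.0543, 0.0914, 0.247 and 0.0801 CPM at Day 0 and 0.475, 0.342, 1.53 and 0.672 CPM at Day 7. Every Day 7 library exceeded every Day 0 library, with a rise of 2.70 ± 0.67 (adjusted p = 0.0038), from at most 4 reads in a Day 0 library.

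Dendritic cell genes were higher for 7 of 15 and lower for 1. Flt3, the receptor of their growth factor, rose by 1.34 ± 0.19 (adjusted p = 1.3e-05) and Itgae, the chain CD103, by 1.84 ± 0.19 (adjusted p = 1.7e-07). Zbtb46, a transcription factor shared with endothelium, was the lower member, at -0.94 ± 0.19 (adjusted p = 7.6e-04). Among 10 genes of mast cells, basophils and eosinophils, 3 were higher and 0 lower, with a median of 0.35. Counted in either direction, 3 of 10 is near the 27.9% of all genes called. Siglecf was at 1.90 ± 0.37 and Ccr3, the eotaxin receptor, at 1.52 ± 0.26. The count was 2 without any of Day 0 replicates 2 to 4, or without Day 7 replicate 1, 3 or 4.

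Genes of lipid-associated macrophages, the state seen around dying fat-laden tissue, were higher for 14 of 20 and lower for 3, with a median of 1.10. Trem2, the lipid receptor that drives this state, measured 20.6, 19.7, 29.05 and 24.2 CPM at Day 0 and 92.8, 109, 74.3 and 113 CPM at Day 7. Fabp5, a carrier of fatty acids, measured 17.4, 24.5, 23.1 and 30.1 CPM at Day 0 and 124, 147, 63.1 and 111 CPM at Day 7. All Day 7 libraries lay above Day 0 for both, and the changes were 2.06 ± 0.32 (adjusted p = 4.0e-05) and 2.22 ± 0.48 (adjusted p = 0.0012). Lgals3, galectin-3, rose by 2.40 ± 0.39 (adjusted p = 7.0e-05) and Plin2, the coat of lipid droplets, by 1.06 ± 0.16 (adjusted p = 1.9e-05). Apoe, the main apolipoprotein that macrophages secrete, was 0.92 ± 0.37 with adjusted p = 0.068. The 3 lower members were Cd36, Lpl and Fabp4, at -1.54 ± 0.18, -1.99 ± 0.20 and -2.24 ± 0.27. Heart muscle and capillary endothelium express these genes too, and marker sums of both fell in the same libraries, as given with the cardiomyocyte genes. Their part in these falls was not tested.

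Of 32 lysosome genes 25 were higher and 0 lower, with a median of 0.71. Ctsd, the aspartic protease cathepsin D, measured 260.0, 282, 317 and 282 CPM at Day 0 and 1244, 1493, 1128 and 1616 CPM at Day 7. Ctsk, the collagen-cleaving cathepsin K, measured 1.41, 1.87, 1.30 and 2.32 CPM at Day 0 and 12.2, 13.1, 30.5 and 20.995 CPM at Day 7. Both stood above Day 0 in every Day 7 library (2.26 ± 0.21, adjusted p = 7.5e-08, and 3.46 ± 0.41, adjusted p = 1.2e-06). Ctsl rose by 1.47 ± 0.13, Ctss by 1.35 ± 0.23, Ctsb by 1.11 ± 0.19, Psap, the precursor of saposins, by 0.84 ± 0.12 and Lipa, the acid lipase that frees cholesterol, by 0.94 ± 0.14. Atp6v1a and Atp6v0d1, subunits of the proton pump, rose by 1.10 ± 0.11 (adjusted p = 1.6e-07) and 0.61 ± 0.13 (adjusted p = 0.0012). Tfeb and Tfe3, the factors that bind the CLEAR element of lysosomal genes, did not pass the test (0.32 ± 0.21, adjusted p = 0.29, and -0.02 ± 0.11, adjusted p = 0.93).

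Promoters of the lysosome members were searched for the palindromic CLEAR letters TCACGTGA in RefSeq windows of GRCm38.p6, from 250 bases before the start to 50 after it. The letters were held by 3 of 17 higher members and 1 of 7 others that had a promoter, against 1.01% of 27025 promoters. The windows of Ctsd and Atp6v1a, the holders with the largest changes, are shown with the match in capitals. A match is a description of the letters and not a site shown to be bound.
Ctsd, chr7:142387778-142388077, minus strand: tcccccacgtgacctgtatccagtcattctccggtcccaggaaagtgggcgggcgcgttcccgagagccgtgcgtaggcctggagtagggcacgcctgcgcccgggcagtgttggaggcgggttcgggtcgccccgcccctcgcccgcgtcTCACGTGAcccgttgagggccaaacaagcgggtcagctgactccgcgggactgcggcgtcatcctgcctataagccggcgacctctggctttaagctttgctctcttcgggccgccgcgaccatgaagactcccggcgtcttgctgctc
Atp6v1a, chr16:44139210-44139509, minus strand: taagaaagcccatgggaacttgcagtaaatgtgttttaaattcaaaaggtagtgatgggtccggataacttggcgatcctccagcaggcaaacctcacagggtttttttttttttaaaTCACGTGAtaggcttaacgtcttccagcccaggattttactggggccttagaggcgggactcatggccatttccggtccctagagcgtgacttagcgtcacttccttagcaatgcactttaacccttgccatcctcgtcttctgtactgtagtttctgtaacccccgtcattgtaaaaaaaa

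Cholesterol genes rose together on the synthesis side. Of 16, 12 were higher and 0 lower, with a median of 0.82. Mvd, a decarboxylase of the mevalonate pathway, measured 1.90, 1.74, 1.55 and 1.20 CPM at Day 0 and 4.67, 4.87, 5.60 and 4.98 CPM at Day 7. Sqle, squalene epoxidase, measured 6.84, 5.03, 4.82 and 4.97 CPM at Day 0 and 11.4, 13.5, 12.9 and 9.85 CPM at Day 7. The days did not overlap, with differences of 1.66 ± 0.22 (adjusted p = 5.1e-06) and 1.14 ± 0.17 (adjusted p = 2.4e-05). On the export side 5 of 11 LXR targets were higher, among them Abcg1, the exporter to HDL, at 1.67 ± 0.17 (adjusted p = 1.3e-07), while Abca1 was 0.53 ± 0.20 with adjusted p = 0.056. The LXR count was 8 of 11 by DESeq2, with the 8 libraries alone, or without Day 28 replicates 2 and 4.

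Iron handling was in part higher, for 7 of 15 genes with 0 lower. Hmox1, which opens the heme ring, measured 62.2, 57.03, 68.1 and 59.2 CPM at Day 0 and 148, 99.6, 211 and 146 CPM at Day 7, 1.29 ± 0.19 (adjusted p = 1.9e-05). Ftl1, the light chain of ferritin, rose by 1.19 ± 0.32 (adjusted p = 0.0071). Of 17 antioxidant genes, 8 were higher and 2 lower. Slc7a11, the cystine importer, rose by 2.09 ± 0.27 (adjusted p = 3.7e-06) and Nqo1 fell, at -2.29 ± 0.27 (adjusted p = 1.3e-06).

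The alternative activation list divided, with 8 of 17 higher and 2 lower. Besides Arg1 and Chil3, Il10 measured 1.14, 0.823, 1.73 and 1.44 CPM at Day 0 and 6.41, 6.66, 7.43 and 15.8 CPM at Day 7, with replicate 4 the highest, and rose by 2.82 ± 0.44 (adjusted p = 3.7e-05). Il4ra, the receptor for IL-4 and IL-13, rose by 1.31 ± 0.17 and Tgm2, transglutaminase, by 1.68 ± 0.19. Retnla, the secreted protein that IL-4 induces beside Arg1, moved the opposite way, with 138, 166, 156 and 117 CPM at Day 0 and 25.9, 18.4, 0 and 26.8 CPM at Day 7. It was listed at 0 in Day 7 replicate 3 and lay below Day 0 in the other 3, for a change of -3.02 ± 0.89 (adjusted p = 0.013).

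Inflammatory cytokines and enzymes were higher for 9 of 14 and lower for 2. Il1b measured 48.4, 41.2, 63.5 and 48.5 CPM at Day 0 and 169, 77.8, 289 and 148 CPM at Day 7. Its natural antagonist Il1rn measured 5.59, 4.30, 6.12 and 6.25 CPM at Day 0 and 43.6, 27.4, 52.5 and 32.7 CPM at Day 7. The days were apart for both, at 1.76 ± 0.31 (adjusted p = 1.8e-04) and 2.81 ± 0.24 (adjusted p = 2.4e-08). Il1a rose by 3.51 ± 0.44, Ptgs2, the inducible cyclooxygenase, by 2.83 ± 0.38, Il6 by 2.04 ± 0.42 and Osm, oncostatin M, by 1.83 ± 0.24. Tnf was 0.41 ± 0.26 with adjusted p = 0.27. Nos2, the inducible nitric oxide synthase that competes with Arg1 for arginine, measured 5.32, 6.63, 4.82 and 6.81 CPM at Day 0 and 1.46, 1.14, 2.78 and 1.62 CPM at Day 7. All Day 7 libraries were below Day 0 (-1.74 ± 0.27, adjusted p = 3.8e-05). Sensors of the Toll-like receptor and inflammasome list were higher for 12 of 23, with Clec4e, which senses dead cells, at 3.40 ± 0.32 and Tlr2 at 1.17 ± 0.17.

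Chemokines that call in monocytes and neutrophils were higher for 8 of 12 of the Ccl kind and 6 of 9 of the Cxcl kind. Ccl8 measured 10.2, 9.55, 16.7 and 14.3 CPM at Day 0 and 137, 81.1, 174 and 155 CPM at Day 7, a change of 3.43 ± 0.58 (adjusted p = 1.1e-04). Cxcl3, a ligand of Cxcr2, measured 0.109, 0.137, 0.247 and 0.401 CPM at Day 0 and 18.3, 6.85, 17.1 and 5.42 CPM at Day 7. Every Day 7 library exceeded every Day 0 library in both genes. Ccl7 rose by 1.36 ± 0.27 and Cxcl1 by 1.77 ± 0.36, while Ccl2 was 0.62 ± 0.23 with adjusted p = 0.053, and passed without Day 7 replicate 2 (adjusted p = 0.018). Cxcl12, which is made by stroma and endothelium, was the lower Cxcl member (-1.88 ± 0.22, adjusted p = 8.6e-07). Of 12 chemokine receptors 8 were higher, with Ccr1 at 1.41 ± 0.23.

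Interferon-stimulated genes, the antiviral program, were higher for 17 of 30 and lower for 0, with a median of 0.44. Without Day 0 replicate 2 the count was 11. Irf7, the factor that amplifies the response, measured 16.9, 12.3, 22.4 and 22.2 CPM at Day 0 and 54.6, 48.7, 66.6 and 59.4 CPM at Day 7. Oas3, which makes the messenger that activates RNase L, measured 8.20, 6.53, 10.2 and 9.29 CPM at Day 0 and 27.4, 23.4, 36.3 and 34.99 CPM at Day 7. The groups did not overlap and differed by 1.64 ± 0.32 (adjusted p = 4.9e-04) and 1.84 ± 0.26 (adjusted p = 1.4e-05). Ifit2 rose by 1.39 ± 0.22 (adjusted p = 4.3e-05), Isg15, the ubiquitin-like modifier, by 1.18 ± 0.27 (adjusted p = 0.0018) and Ifit1 by 0.89 ± 0.23 (adjusted p = 0.0047). Cxcl10, a T cell attractant, rose by 1.24 ± 0.40 (adjusted p = 0.024), a call lost without Day 0 replicate 1 or 2 or Day 7 replicate 4.

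The interferon-stimulated response element was searched as GAAA, any 2 bases and GAAA on either strand of the same windows. Of 13 higher members with a promoter 10 held it, as did 4 of 10 others, against 3.49% of all promoters. Windows of 3 holders are printed to show the element, in capitals, beside genes whose changes are given here. That of Isg15 holds 3 overlapping matches, and that of Ifit1 holds 2 on the reverse strand.
Oas3, chr5:120777610-120777909, minus strand: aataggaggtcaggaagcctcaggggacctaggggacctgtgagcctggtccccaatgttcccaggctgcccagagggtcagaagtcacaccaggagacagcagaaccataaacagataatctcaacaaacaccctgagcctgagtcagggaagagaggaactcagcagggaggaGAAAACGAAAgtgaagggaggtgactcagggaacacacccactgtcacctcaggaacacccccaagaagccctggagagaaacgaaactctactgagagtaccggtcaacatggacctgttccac
Isg15, chr4:156200769-156201068, minus strand: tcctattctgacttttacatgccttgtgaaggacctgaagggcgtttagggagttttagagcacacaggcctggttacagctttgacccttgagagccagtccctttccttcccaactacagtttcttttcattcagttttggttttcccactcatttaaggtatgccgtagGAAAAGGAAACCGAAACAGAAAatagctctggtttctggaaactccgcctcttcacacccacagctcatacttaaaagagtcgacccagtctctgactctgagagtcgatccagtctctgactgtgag
Ifit1, chr19:34640639-34640938, plus strand: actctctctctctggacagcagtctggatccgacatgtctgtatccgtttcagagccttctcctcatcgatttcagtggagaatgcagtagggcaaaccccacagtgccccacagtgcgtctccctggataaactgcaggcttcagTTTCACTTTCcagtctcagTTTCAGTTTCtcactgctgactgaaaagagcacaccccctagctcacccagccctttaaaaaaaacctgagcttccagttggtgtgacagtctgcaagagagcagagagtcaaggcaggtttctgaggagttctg

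Of 10 class I genes of antigen presentation 5 were higher, with H2-K1, a heavy chain, at 0.62 ± 0.13 (adjusted p = 6.7e-04), and the count was 3 without Day 0 replicate 2 or without Day 7 replicate 1 and 10 of 10 with the 8 libraries alone. Of 12 class II genes only Ctss was higher, and Cd74, the invariant chain, was lower at -0.49 ± 0.16 (adjusted p = 0.028). H2-Ab1 measured 626, 605, 630.4 and 600.2 CPM at Day 0 and 627, 448, 469.6 and 521 CPM at Day 7, -0.25 ± 0.19 (adjusted p = 0.35). The call of Cd74 was lost without either of replicates 2 and 3 of Day 7 or any of replicates 2 to 4 of Day 0. Among Fc receptors and adaptors 5 of 8 were higher, with Fcgr4 at 1.63 ± 0.18, and 3 of 8 without Day 0 replicate 2 or 4 or Day 7 replicate 4. Complement genes were higher for 5 of 16 and lower for 1, against 14.1% and 13.9% of all genes, with Cfb, factor B, at 2.21 ± 0.30 and C4b at 1.51 ± 0.20. The higher count was 4 without Day 0 replicate 1, 2 or 4 or Day 7 replicate 1, 3 or 4.

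Of 29 collagen and other matrix genes, 22 were higher and 2 lower, with a median of 1.39. Fn1, fibronectin, measured 163, 169.9, 128 and 184 CPM at Day 0 and 2381, 2040.2, 3751 and 2259 CPM at Day 7. Col1a1, the main scar collagen, measured 36.3, 34.7, 43.7 and 44.1 CPM at Day 0 and 326, 383, 612 and 431 CPM at Day 7. Postn, periostin of activated fibroblasts, measured 9.07, 11.7, 14.8 and 15.8 CPM at Day 0 and 116, 143, 129 and 173 CPM at Day 7. In these genes the days were far apart, with changes of 4.01 ± 0.27 (adjusted p = 1.5e-09), 3.46 ± 0.30 (adjusted p = 3.2e-08) and 3.44 ± 0.31 (adjusted p = 4.7e-08). Cthrc1, a marker of scar-forming fibroblasts, measured 0, 0.137, 0.0618 and 0.160 CPM at Day 0 and 7.99, 8.29, 7.96 and 7.63 CPM at Day 7. Tnc, tenascin, rose by 5.19 ± 0.39, Lox, the collagen crosslinker, by 3.33 ± 0.29 and Col3a1 by 2.92 ± 0.23. The basement membrane chains Col4a1 and Col4a2 were the lower members, at -1.10 ± 0.17 and -1.10 ± 0.19.

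Of 12 general fibroblast markers, only Mfap5 was higher and 0 were lower, with a median of -0.10, and their sum ran from 379 to 523 CPM at Day 0 and from 297 to 498 CPM at Day 7. Pdgfra, the fibroblast receptor, was -0.15 ± 0.23 (adjusted p = 0.69) and Dcn, decorin, -0.44 ± 0.26 (adjusted p = 0.24). Without Day 7 replicate 3 the fibroblast list had 4 lower members, and without Day 0 replicate 1 it had 1. In reads outside rRNA, the collagen and matrix sum of HC at Day 7 was 7479 CPM, against 85508 CPM in the FB isolate of that day. The part of fibroblast RNA in these rises was not tested.

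Proteases that act on matrix were higher for 11 of 15 and lower for 2. Adam8, a sheddase of myeloid cells, measured 9.61, 11.7, 10.4 and 9.73 CPM at Day 0 and 93.95, 65.97, 119.7 and 91.7 CPM at Day 7. Timp1, an inhibitor of metalloproteinases, measured 0.760, 0.548, 0.803 and 0.881 CPM at Day 0 and 17.6, 7.34, 19.4 and 9.37 CPM at Day 7. Both rose in every Day 7 library, by 3.16 ± 0.19 (adjusted p = 4.0e-10) and 4.16 ± 0.42 (adjusted p = 1.9e-07). Mmp14 rose by 1.99 ± 0.18 and Mmp19 by 3.20 ± 0.26, with Day 7 replicate 2 the lowest of Mmp19. Mmp13 and Timp3 were lower, at -1.35 ± 0.16 and -1.31 ± 0.21.

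T cell genes were higher for 18 of 18, with a median of 2.21, and this count rested on Day 7 replicate 2. The list summed to 76.3 to 159 CPM at Day 0, and at Day 7 to 292, 1518, 142 and 160 CPM. Trbc2, a constant region of the T cell receptor, measured 9.94, 5.25, 3.65 and 5.05 CPM at Day 0 and 23.3, 200.1, 7.72 and 9.88 CPM at Day 7. Cd8a, the coreceptor of cytotoxic cells, measured 6.74, 5.76, 4.39 and 3.88 CPM at Day 0 and 21.8, 134, 6.20 and 9.65 CPM at Day 7. In both, replicate 2 stood apart from the other 3 Day 7 libraries, and replicate 3 lay within the Day 0 range. Without replicate 2 the list had 5 of 18 higher with a median of 1.09, and Trbc2 and Cd8a lost their calls (adjusted p = 0.12 and 0.11). That fit called 4516 of 19237 genes, 2215 of them higher. On the 8 libraries alone 7 of 18 were called, all higher. That fit called 6808 of 17362 genes, 3508 of them higher, so 7 of 18 is near its share of all genes called.

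Genes of developing thymocytes, picked after their values were seen, marked the same library. Rag1, the recombinase that joins receptor segments, measured 16.7, 817, 2.49 and 10.3 CPM at Day 7 and 12.2, 5.16, 0.494 and 0.160 CPM at Day 0. Dntt, which adds bases at those joints, reached 130 CPM in replicate 2 and 0.928 to 2.41 CPM in the other Day 7 libraries. Themis, Ccr9 and Bcl11b reached 274, 163 and 253 CPM there. The next highest HC library for Rag1 was Day 28 replicate 2, at 200 CPM. Day 7 replicate 2 was also lowest among the Day 7 libraries for the resident macrophage sum (3246 CPM against 4632 to 6288) and the recruited monocyte sum (1133 CPM against 1379 to 2006).

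**Figure D3:**
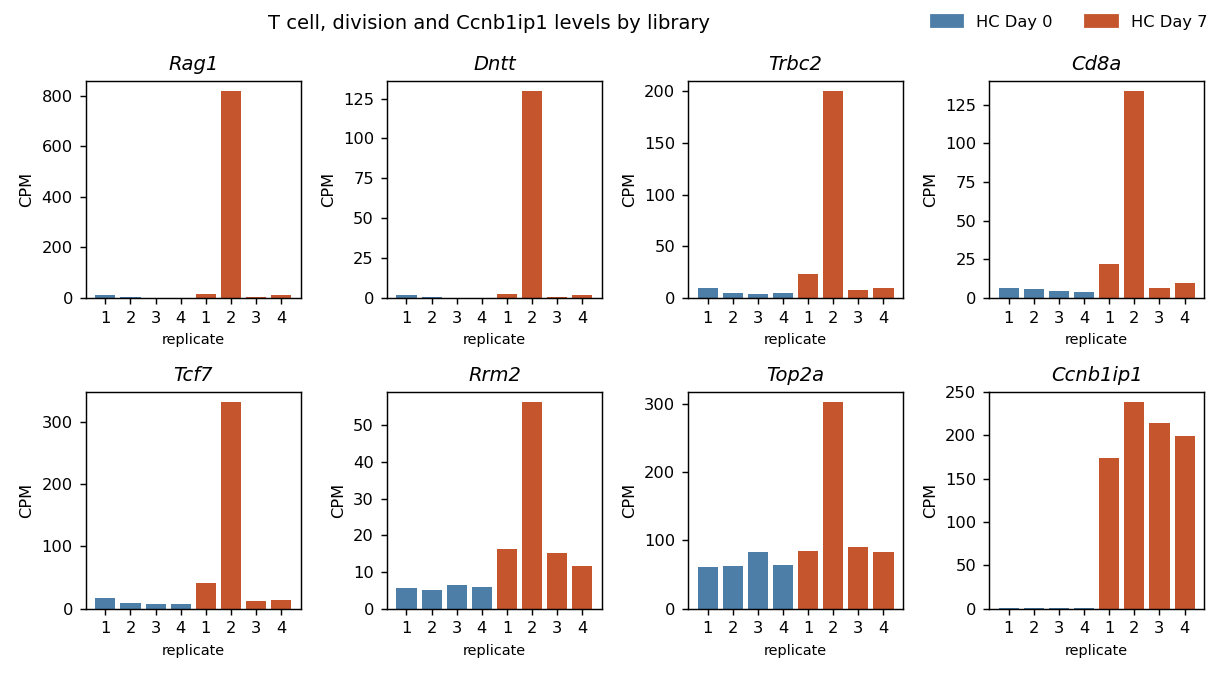
Level in CPM of 8 genes in each HC library, replicates 1 to 4 of Day 0 (blue) and Day 7 (red). The levels of Rag1, Dntt, Trbc2, Cd8a, Tcf7, Rrm2 and Top2a peak in Day 7 replicate 2, where Rag1 is at 817 CPM, while Ccnb1ip1 is high in all 4 Day 7 libraries.

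Of the T cell genes, Il7r, Ctla4 and Icos kept their calls in every omission of 1 library. Ctla4, the inhibitory receptor, measured 4.83, 1.87, 1.61 and 2.80 CPM at Day 0 and 8.42, 11.6, 8.82 and 5.85 CPM at Day 7. Icos, a costimulator of helper cells, measured 4.78, 3.56, 2.41 and 2.68 CPM at Day 0 and 8.38, 9.97, 9.45 and 4.74 CPM at Day 7. Replicate 2 was the highest Day 7 library of both, close to the next, and Icos overlapped between the days by replicate 4 of Day 7 alone. The changes were 1.64 ± 0.37 (adjusted p = 0.0018) and 1.28 ± 0.32 (adjusted p = 0.0042). Foxp3, which defines regulatory T cells, measured 0.652, 0.274, 0.0618 and 0.240 CPM at Day 0 and 2.65, 1.18, 4.54 and 1.38 CPM at Day 7. Its Day 7 libraries all exceeded Day 0, with replicate 3 the highest (2.97 ± 0.97, adjusted p = 0.026), and the call was lost without Day 7 replicate 3 or any of Day 0 replicates 2 to 4.

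B cell genes gave 0 of 15 higher and 0 lower by edgeR, with 2 lower when Day 7 replicate 1 was left out. Ms4a1, the antigen CD20, measured 93.3, 32.8, 33.1 and 63.6 CPM at Day 0 and 140.3, 15.6, 37.6 and 32.1 CPM at Day 7, 0.02 ± 0.49 (adjusted p = 0.98). Replicate 1 was the highest at each day, for Cd79a too. NK and innate lymphoid genes were higher for 6 of 13 and lower for 1, with 1 higher without Day 0 replicate 3 and 3 higher without Day 0 replicate 1, Day 0 replicate 2 or Day 7 replicate 4, or without a filter on low counts. The lower member, Il1rl1, the IL-33 receptor, was at -0.61 ± 0.16 (adjusted p = 0.0054) and at 0.06 on the TPM scale, where it was not called.

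Cell division genes were higher for 28 of 47 and lower for 1, with a median of 0.87, and replicate 2 bore on this count too. Without Day 7 replicate 2, 14 were higher and the median was 0.46. In total 18 were called without Day 0 replicate 2. Rrm2, which supplies the bases of DNA, measured 5.76, 5.16, 6.55 and 5.85 CPM at Day 0 and 16.2, 56.3, 15.1 and 11.7 CPM at Day 7. Top2a, the topoisomerase of dividing cells, measured 61.4, 62.1, 83.8 and 63.7 CPM at Day 0 and 84.6, 303, 90.1 and 82.8 CPM at Day 7. Both peaked in replicate 2, but the other Day 7 libraries of Rrm2 were also above Day 0, and its change without replicate 2 was 1.30 ± 0.21 (adjusted p = 1.1e-04). Top2a then lost its call (adjusted p = 0.38). Mcm6, of the replicative helicase, rose by 0.84 ± 0.16 with all libraries and by 0.60 ± 0.14 without replicate 2. Mki67 was 0.60 ± 0.30 with adjusted p = 0.14. Kif23, a kinesin of cell separation, was the lower member (-0.51 ± 0.17, adjusted p = 0.032), a call lost when any of 5 single libraries was left out. Replication-dependent histones were higher for 18 of 27, for 7 without Day 7 replicate 2, and for 11 without Day 0 replicate 1. Their transcripts are near-identical copies, so reads may be divided among them uncertainly. In the promoter windows of cell cycle members, CCAAT was held by 20 of 25 higher and 9 of 13 others (37.9% of all promoters), TTTGAA by 10 and 9 (18.1%) and GGCGGGAA by 3 and 0 (2.24%).

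Markers of heart muscle, endothelium, mural cells and red cells fell in these isolates. All 15 cardiomyocyte genes were lower, with a median of -2.67, and so were 12 of 12 endothelial, 10 of 10 mural and 5 of 6 erythroid genes. On the TPM scale 15 cardiomyocyte, 10 endothelial, 8 mural and 2 erythroid genes were lower. The cardiomyocyte sum ran from 14634 to 23116 CPM at Day 0 and from 1764 to 3917 CPM at Day 7. Myh6, the main adult myosin chain, measured 2774, 4673, 3323 and 3011 CPM at Day 0 and 482, 304, 806 and 576 CPM at Day 7. Kdr, the VEGF receptor of endothelium, measured 131, 200.2, 197 and 221 CPM at Day 0 and 47.4, 30.4, 46.8 and 45.4 CPM at Day 7. The days were far apart for both (-2.67 ± 0.29, adjusted p = 3.9e-07, and -2.14 ± 0.19, adjusted p = 5.1e-08). In reads outside rRNA, HC held 40.3% of the cardiomyocyte sum of the CM isolate at Day 0 and 6.89% at Day 7. On the same scale the endothelial sum ran from 717 to 1039.9 CPM in HC at Day 0 and from 209 to 291 CPM at Day 7. Of the 20 lowest changes, Trdn, Pln, Myl2 and Hrc encode proteins of heart muscle, at -3.13 ± 0.31, -2.92 ± 0.27, -2.96 ± 0.36 and -3.02 ± 0.29, and Ptgds, prostaglandin D synthase, was the lowest at -3.25 ± 0.51.

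Energy genes moved with these markers. Oxidative phosphorylation was lower for 32 of 36 genes, with a median of -1.01, the mitochondrial genome for 13 of 13, with a median of -1.63, and fatty acid oxidation for 19 of 21, with a median of -1.47. Atp5a1, of the ATP synthase, measured 482, 687, 586 and 535 CPM at Day 0 and 268, 262, 287 and 249.8 CPM at Day 7. Cpt1b, the muscle form of the fatty acid carrier enzyme, measured 48.7, 65.7, 53.3 and 41.5 CPM at Day 0 and 8.90, 6.43, 12.996 and 10.04 CPM at Day 7. Both were below Day 0 in all 4 Day 7 libraries, by -1.10 ± 0.13 and -2.44 ± 0.28. The part of cardiomyocyte RNA in these falls was not tested. On the TPM scale 0 of 36, 4 of 13 and 12 of 21 were called lower, with medians of -0.45, -1.09 and -0.81.

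Glycolysis went the other way, with 11 of 17 higher, 0 lower and a median of 0.55. Slc16a3, the lactate exporter, measured 9.72, 8.41, 10.4 and 8.89 CPM at Day 0 and 49.7, 28.9, 68.4 and 43.3 CPM at Day 7. Slc2a1, the glucose transporter, measured 12.5, 13.8, 13.5 and 15.98 CPM at Day 0 and 42.7, 35.2, 45.8 and 40.4 CPM at Day 7. Day 7 exceeded Day 0 without overlap (2.35 ± 0.21, adjusted p = 5.1e-08, and 1.56 ± 0.16, adjusted p = 2.8e-07). Hif1a rose by 1.16 ± 0.16 (adjusted p = 9.4e-06), and the hypoxia list had 1 of 16 higher and 5 lower, with a median of -0.08 and Vegfa at -1.27 ± 0.24 (adjusted p = 2.7e-04). On the TPM scale the hypoxia list turned to 4 higher and 1 lower with a median of 0.33, Vegfa lost its call (-0.71, adjusted p = 0.22 by limma) and 7 glycolysis genes were higher. Ldha rose by 0.53 ± 0.12 and Hk2 was -0.14 ± 0.11 with adjusted p = 0.39.

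Growth factors were higher for 10 of 21 and lower for 3, and on the TPM scale for 7 and 0. Gdf15, a stress cytokine, measured 3.80, 3.47, 5.50 and 6.29 CPM at Day 0 and 21.7, 29.03, 11.4 and 40.2 CPM at Day 7, 2.42 ± 0.51 (adjusted p = 0.0011). Gdf3 rose by 2.00 ± 0.33 and Pdgfc by 0.62 ± 0.17 (adjusted p = 0.0098). Igf1, a macrophage growth factor for muscle, measured 252, 265, 299 and 269 CPM at Day 0 and 274, 237, 280.4 and 315 CPM at Day 7, and the days overlapped (0.03 ± 0.15, adjusted p = 0.91), while limma called it at 0.97 on the TPM scale (adjusted p = 0.031). Myeloid transcription factors were higher for 8 of 19, and for 4 on the TPM scale, with Bhlhe40 at 1.44 ± 0.16 and Nr4a3 at 1.65 ± 0.33, and Spi1, the factor PU.1, at 0.61 ± 0.18 (adjusted p = 0.014), lost without Day 7 replicate 4. The letters GAGGAAGT of PU.1 stood in 0 of 5 higher and 1 of 4 other pan macrophage promoters (3.28% of all), and TGANTCA of AP-1 in 2 of 10 higher and 0 of 4 other lipid-associated promoters (7.93% of all).

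Day 7 was also set beside the neighbouring days, in comparisons that share the Day 7 libraries. The files of Day 3 and Day 14 list genes, as at Day 0, and those of Day 1 list transcripts, as at Day 7. Against Day 3 and Day 14, the kind of file and the day therefore cannot be told apart. Against Day 3, 2068 genes were higher at Day 7 (11% of those tested) and 1656 lower (8.78%). Recruited monocyte genes were lower than at Day 3 for 5 of 12, lipid-associated genes for 14 of 20 and lysosome genes for 18 of 32, while 25 of 29 matrix genes were higher. Spp1 stood -2.77 ± 0.30 from Day 3 and Ctsd -1.14 ± 0.21, whereas Col1a1 stood 1.52 ± 0.28 and Postn 2.08 ± 0.29. Against Day 1, 2341 genes were higher (12.4%) and 1867 lower (9.9%), with 9 of 12 recruited monocyte, 9 of 11 neutrophil and 17 of 17 glycolysis genes lower at Day 7 and 34 of 47 cell cycle genes and 24 of 29 matrix genes higher, although the matrix sum averaged 9495 CPM at Day 1 and 6195 CPM at Day 7.

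Fewer genes separated Day 7 from Day 14, with 84 higher (0.445%) and 519 lower (2.75%). The total of 603 was 232 without Day 7 replicate 2, 284 without Day 7 replicate 1, 369 without Day 7 replicate 4, 302 without Day 14 replicate 3 and 270 without Day 14 replicate 4. Interferon genes were higher than at Day 14 for 10 of 30, lysosome genes for 6 of 32 and lipid-associated genes for 6 of 20. Gpnmb stood 2.41 ± 0.52 above Day 14 (adjusted p = 0.013) and Ifit2 1.24 ± 0.22 (adjusted p = 0.0038). The lower genes included 11 of 15 of the cardiomyocyte list. Timd4 was lower than at Day 14 by the log2 difference -0.99 ± 0.17 (adjusted p = 0.0038).

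**Figure D4:**
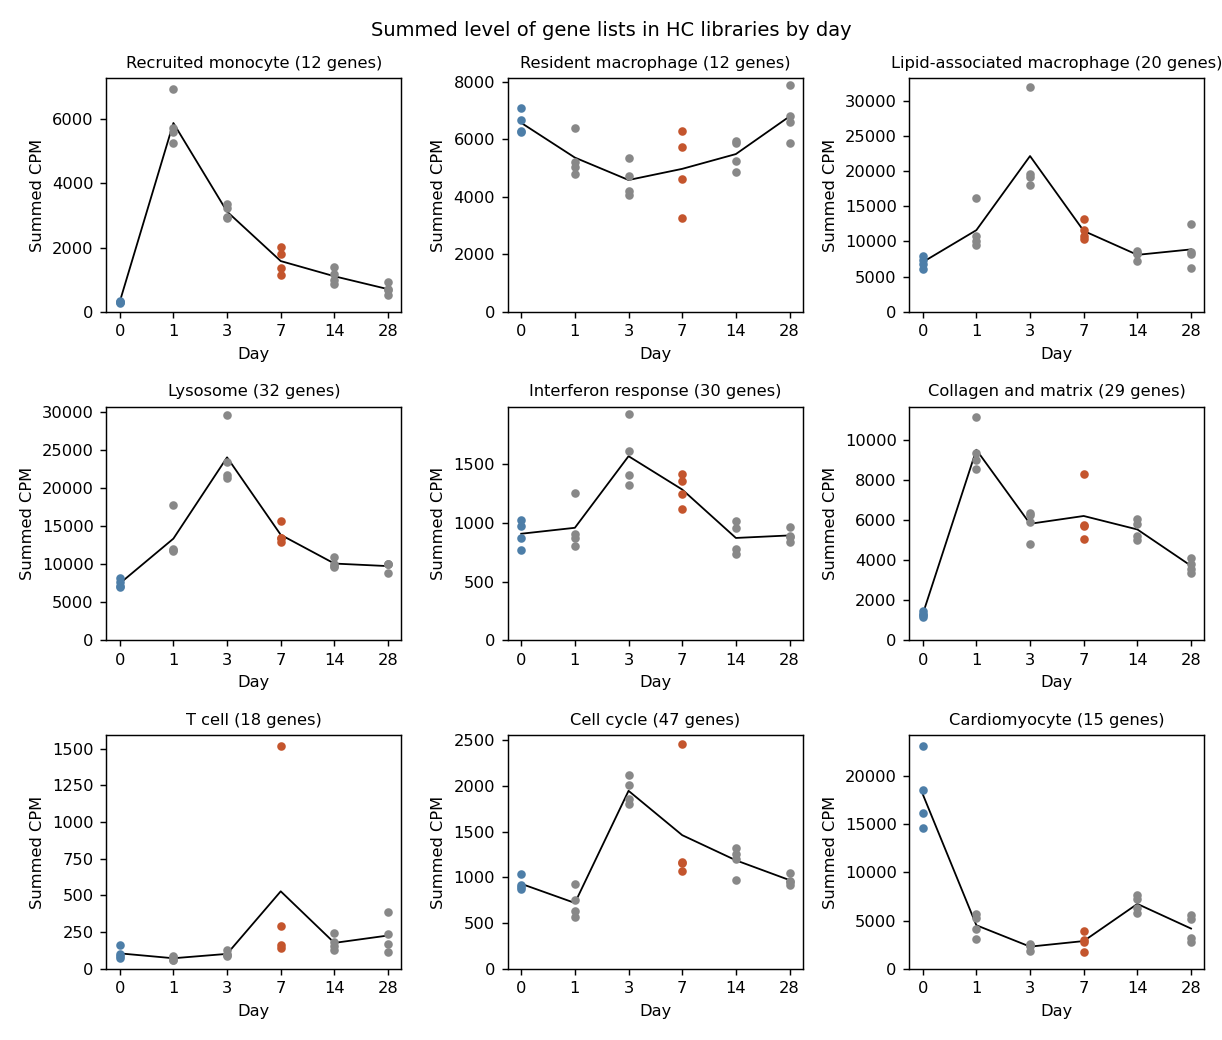
Summed CPM of 9 gene lists in the 24 HC libraries by day after infarction, with each library as a point (Day 0 blue, Day 7 red), days spaced evenly and a line through the means of 4. Recruited monocyte and matrix sums peak at Day 1, lipid-associated, lysosome and interferon sums at Day 3, and 1 Day 7 library lies far above the others for T cells and cell cycle.

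The change from Day 0 to Day 7 in HC was also tested against the mean change in CM, EC and FB, where cell type coincides with the preparation of the libraries. The paper states that at each time point the pools of the cell types stem from matched animals. The main fit took the libraries as independent, so its SE and adjusted p leave out that pairing. Of the 4 cell types, only HC changes from gene to transcript files between these days, so a difference of HC from the others and the kind of file cannot be told apart. Of 19765 genes, the HC change was above the mean for 1824 (9.23%) and below for 2904 (14.7%). Among genes picked after their values were seen, Ctsd rose more in HC by 2.22 ± 0.25 (adjusted p = 1.3e-07), Fabp5 by 2.25 ± 0.26 (adjusted p = 2.1e-07), Gpnmb by 4.12 ± 0.96 (adjusted p = 0.0021) and F10 by 3.38 ± 0.44 (adjusted p = 9.9e-07). Thbs1, Plin2, Ctsl and Psap also rose more in HC, by 1.96 ± 0.31, 1.42 ± 0.15, 1.46 ± 0.12 and 1.02 ± 0.14. Spp1 and Fn1 did not pass (1.67 ± 1.01, adjusted p = 0.25, and 0.47 ± 0.29, adjusted p = 0.27), and Fn1 averaged 217 CPM at Day 0 and 3297 CPM at Day 7 in FB. Below the mean were Mrc1, Maf, Lyve1 and F13a1, at -2.24 ± 0.24, -2.33 ± 0.20, -1.94 ± 0.27 and -1.38 ± 0.28. Mrc1 averaged 2.35 CPM at Day 0 and 8.17 CPM at Day 7 in CM, and 2.11 and 14.2 CPM in EC, while HC libraries ran from 1689.6 to 1814 CPM at Day 0 and from 1013 to 1977 CPM at Day 7. Col1a1 also changed less in HC, at -1.16 ± 0.28 (adjusted p = 0.0024).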

How the data were processed

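Total RNA of CD45-selected HC was made into libraries with the CATS Total RNA-seq Kit v2 after rRNA depletion. The authors trimmed reads with Trim Galore, and their notes name STAR 2.28, Salmon and the build mm10. The deposited Salmon files give estimated counts (NumReads), which the authors did not normalize, and TPM values, which the authors' run of Salmon scaled by length and depth. Estimated counts were summed to genes with the mouse GRCm38 annotation, rounded, and kept for 50944 genes in every file used, of which 152 were set aside because their lengths differed between transcript and gene files. At most 0.269% of reads in the 8 libraries had no gene.

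All 24 HC libraries were fitted together with edgeR 4.0.16 (TMM, filterByExpr, quasi-likelihood) in R 4.3.3, without a replicate block, and contrasts were adjusted by Benjamini-Hochberg over all genes at 0.05. The change against CM, EC and FB was a contrast of 1 fit to the 32 libraries of Days 0 and 7 of the 4 cell types. DESeq2 1.42.0, limma 3.58.1 on log2(TPM + 1), RLE factors, no filter, other gene sets, the 8 libraries alone, each library left out and a replicate block were alternatives. Statistics were tested on simulated data, where many of the smaller differences put in were missed. The bar for this test was replaced after a first version failed. A gene that did not pass here is therefore not shown to be unchanged. Genes named are members of gene lists, or the 20 highest and 20 lowest changes that passed the test, averaged 10 CPM or more over the 8 libraries and did not overlap between days, or Il1b and Folr2. Members and lists were chosen with earlier results of these data known. Precision is limited by 4 pooled libraries a group and by 18518234 to 28583143 reads. Some members of the lists are not reported here by name.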

Additional observations from a re-analysis of the deposited data

Results flagged for a closer look

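Of 330 groups of 4 libraries, taken over the genes named, 17 held a library far from the other 3 by Dixon's test. That is near the 1 in 20 groups that chance alone gives. Of these libraries 11 were Day 7 replicate 2. Several of its flagged genes belong to the same T cell and cell division lists, so they are not independent results. Day 7 replicate 2 was high for Tcf7 (332 CPM), Top2a (303 CPM), Mki67 (325 CPM), Trbc2 (200.1 CPM), Cd8a (134 CPM), Rrm2 (56.3 CPM) and Kif23 (41.4 CPM). It was low for Lyz2 (4208 CPM), Mmp19 (34.4 CPM), Kdr (30.4 CPM) and Cd5l (17.3 CPM). Day 7 replicate 4 was high for Cd68 (246 CPM) and Il10 (15.8 CPM). At Day 0, replicate 3 was high for Top2a (83.8 CPM) and Mmp13 (48.8 CPM), replicate 1 for Sqle (6.84 CPM), and replicate 2 was low for Marco (0.594 CPM).

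The change from Day 0 to Day 7 differed between HC and the mean of CM, EC and FB, by edgeR's test of that difference, for 13 of 16 genes picked after their values were seen. Over all 19765 genes 4728 were called, or 23.9%, and the count of picked genes does not measure how common such a difference is. The change was larger in HC for Gpnmb (log2 difference 4.12), F10 (3.38), Fabp5 (2.25), Ctsd (2.22), Thbs1 (1.96), Ctsl (1.46), Plin2 (1.42) and Psap (1.02). It was smaller in HC for Maf (-2.33), Mrc1 (-2.24), Lyve1 (-1.94), F13a1 (-1.38) and Col1a1 (-1.16). Cell type and library preparation coincide in these libraries, and only HC changes the kind of file between the days, so their parts cannot be told apart.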

How the results depend on the processing

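Genes differing between Day 7 and Day 0 numbered 5271, and 4057 to 4892 when 1 library was left out. The count was 5735 by DESeq2, 6497 without Day 28 replicates 2 and 4, and 6808 with the 8 libraries alone. The study removed 1 HC replicate of Day 28 as an outlier, while the main fit here kept all 24 HC libraries. Against Day 1 the range was 3278 to 3787 around 4208, against Day 3 it was 2716 to 4037 around 3724, and for HC against the other cell types 3743 to 5049 around 4728. Against Day 14 the count of 603 was the least stable. DESeq2 gave 1017, and leaving out 1 library gave 232 to 651, with 284 without Day 7 replicate 1, 232 without Day 7 replicate 2, 369 without Day 7 replicate 4, 302 without Day 14 replicate 3 and 270 without Day 14 replicate 4. Without Day 7 and Day 28 replicate 2 together, an alternative chosen after seeing the data, it was 297. The cause was not tested. Same-numbered Day 0 and Day 7 libraries deviated together with r of 0.131, 0.045, -0.014 and 0.005, so the numbers did not pair them, and the fit with a replicate block called 5484 genes against Day 0, 577 against Day 14, 3991 against Day 3, 4329 against Day 1 and 4548 against the other cell types. Of 143 named genes called, 128 kept the call in every omission of 1 library. On log2(TPM + 1) with limma 21 named genes lost their call (Atp5a1, Cd36, Cd68, Cd74, Col4a1, Col4a2, Cxcl12, F13a1, Foxp3, Ftl1, Kif23, Ldha, Lyve1, Lyz2, Mgl2, Mmp13, Spi1, Timd4, Timp3, Vegfa and Zbtb46), and Il1rl1 changed sign, to 0.061. On that scale Abca1 (adjusted p = 0.021), Ccl2 (0.028), Igf1 (0.031) and Mki67 (0.040) gained a call. Abca1, Apoe, C1qa and Ccl2 passed with DESeq2, the replicate block and the 8 libraries alone, and Ccl2 with RLE factors. Without Day 7 replicate 2, 4516 genes were called against Day 0, and 4237 were called both with and without it. These fits share all other HC libraries, so the shared direction of those genes was no separate test. Genes at a few reads per library cannot be resolved at this depth.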

Other observations

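Ccnb1ip1, a ubiquitin ligase gene known from meiosis, had the largest log2 change of the named genes, 8.75 ± 1.46 (adjusted p = 9.3e-05 by edgeR). It measured 0.380, 0.640, 0.309 and 0.521 CPM at Day 0 and 174, 238, 214 and 199.5 CPM at Day 7. Its level varied widely between libraries of several other groups. At Day 1 the HC libraries held 0.173, 0.359, 0.121 and 14.6 CPM, and at Day 3 38.3, 0.323, 63.8 and 5.25 CPM. All HC libraries of the later days stood above Day 0, with 104, 171, 149 and 98.5 CPM at Day 14. At Day 28 they held 36.3, 29.0, 75.6 and 14.0 CPM. Without TMM scaling, EC Day 0 replicates 1 and 2 held 20.6 and 27.6 CPM while replicates 3 and 4 held 0.342 and 0.210 CPM, and FB Day 0 replicate 1 held 80.4 CPM against 0.476 CPM in replicate 2.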
